A study of Danio rerio with 12 samples.

Results

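Of 30258 annotated zebrafish features, 60 stood highest in LWS1 cones when all the sorted long wavelength-sensitive (LWS) cone libraries were set side by side, and these 60 are described here. For each feature the lowest of the 3 LWS1 values was divided by the highest of the 6 other cone values, in CPM (counts scaled to the same total in every library) with an offset of 5 on both sides. Features needed at least 5 counts in each LWS1 library, which 5511 met, and the 60 highest ratios were taken. The 13 mitochondrial genes and 14 further features, among them opn1lw1, gngt2a and arr3a, were left out of the ranking and of the CPM totals. The members were therefore chosen on their values in LWS1, LWS2 and tdTomato+ libraries, so their standing above the other cones is a description and carries no test. The log2 ratio ran from 1.17 for pcbp4 down to 0.28 for eno1a, and 171 of the 5511 ranked features (3.1%) had a ratio above 1.

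Zebrafish carry tandem copies of the long wavelength opsin, lws1 (opn1lw1) and lws2 (opn1lw2), and an adult LWS cone mostly uses one of them. LWS1 cones occupy the ventral and nasal retina and LWS2 cones the central and dorsal retina, so a sort by opsin reporter is also in large part a sort by position. Cones are glycolytic cells that release glutamate tonically at a ribbon synapse and renew their outer segment through traffic into a modified cilium. A few of the 60 have roles in these activities, and whether such genes are more frequent among them than elsewhere was not tested.

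The samples were adult zebrafish retinal cells, recorded as wild type apart from their reporter transgenes, dissociated after collection of dark-adapted fish near light onset and sorted by fluorescence. LWS1 cones (GFP+) and LWS2 cones (RFP+, dsRedExpress) came from lws:PAC(H) fish, in which each reporter follows the promoter of its own opsin within one transgene. tdTomato+ cones, meant to be LWS cones of both kinds, and tdTomato- retinal cells came from thrb2:tdTomato fish, whose reporter follows the thyroid hormone receptor beta 2 promoter. Each of the 4 groups had 3 libraries of bulk RNA-seq, and nothing in the labels says which fish went into which library, so p-values measure the spread between these libraries, which may be technical. LWS1 and LWS2 cones shared a line but differed in fluorophore, and LWS1 and tdTomato cells differed in line and fluorophore, so these cannot be told apart from the cell type.

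Totals were 694158 to 1417028 counts in LWS1 libraries, 2092699 to 3105062 in LWS2, 2033038 to 2863183 in tdTomato+ and 459226 to 3189337 in tdTomato-, and mitochondrial genes took 18.9% to 29.7% of them in LWS1, 12.9% to 13.8% in LWS2, 22.0% to 71.7% in tdTomato+, where replicate 2 stood highest, and 53.4% to 54.3% in tdTomato-. This share moves with the groups, and its part in the results was not tested beyond fits without the 13 mitochondrial genes. The opn1lw1 share of the counts of both LWS opsins was 73.2% to 93.4% in LWS1 libraries, 21.1% to 31.3% in LWS2, 29.1% to 45.7% in tdTomato+ and 43.3% to 47.2% in tdTomato-. The cone marker list had 17 features, but opn1lw1, gngt2a and arr3a among them were left out of its summed CPM. The rest were present in every group, at 93860 to 119600 summed CPM in LWS1 and 62760 to 86500 in tdTomato-. The tdTomato- cells are labelled as cones although they also held 29030 to 62370 CPM of rod markers. Markers of other cells were not at 0 in the cone sorts: Müller glia markers summed to 1287 to 2678 CPM in LWS1, 823 to 2100 in LWS2 and 288 to 2577 in tdTomato+, rod markers to 4672 to 9208 CPM in LWS1, 3345 to 6294 in LWS2 and 9848 to 24890 in tdTomato+, and muscle and endothelial markers to 299 to 499 CPM in LWS1, 127 to 174 in LWS2 and 154 to 439 in tdTomato+. Of the 19 muscle and endothelial features 11 were at 0 in all LWS1 libraries. The summed CPM of UV, blue and green cone markers was lower in LWS1, at 4661 to 7528, than in LWS2, at 8422 to 8910. The single features did not share that direction. Of 7 tested in LWS1 against LWS2, 4 had a log2 fold change above 0 (median 0.15) and none was called. The markers summed to 10130 to 23140 CPM in tdTomato+ and 22920 to 52690 in tdTomato-. None of the 60 members was on a marker list, and the part of other cells in the members' levels was not tested. In bulk libraries, fewer cells of a type and less RNA per cell cannot be told apart.

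Together the 60 members took 1.63% to 1.92% of the counts in LWS1 libraries, against 0.884% to 0.981% in LWS2, 0.740% to 0.904% in tdTomato+ and 0.699% to 1.02% in tdTomato-. Mean LWS1 levels ran from 10.7 CPM (PCOLCE2) to 2290.0 CPM (si:dkey-65b13.13) with a median of 76.6 CPM. The mean in LWS1 was 1.36 or more times that in LWS2 (median 2.46 times) and 1.53 or more times that in tdTomato+ (median 2.84 times). Many members were thinly counted: 21 had fewer than 20 counts in at least 1 LWS1 library and 8 had fewer than 10. The files gave symbols for 50 members, the reference name table for 8 more, and ENSDARG00000099004 and ENSDARG00000076357 had no name.

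**Figure D1:**
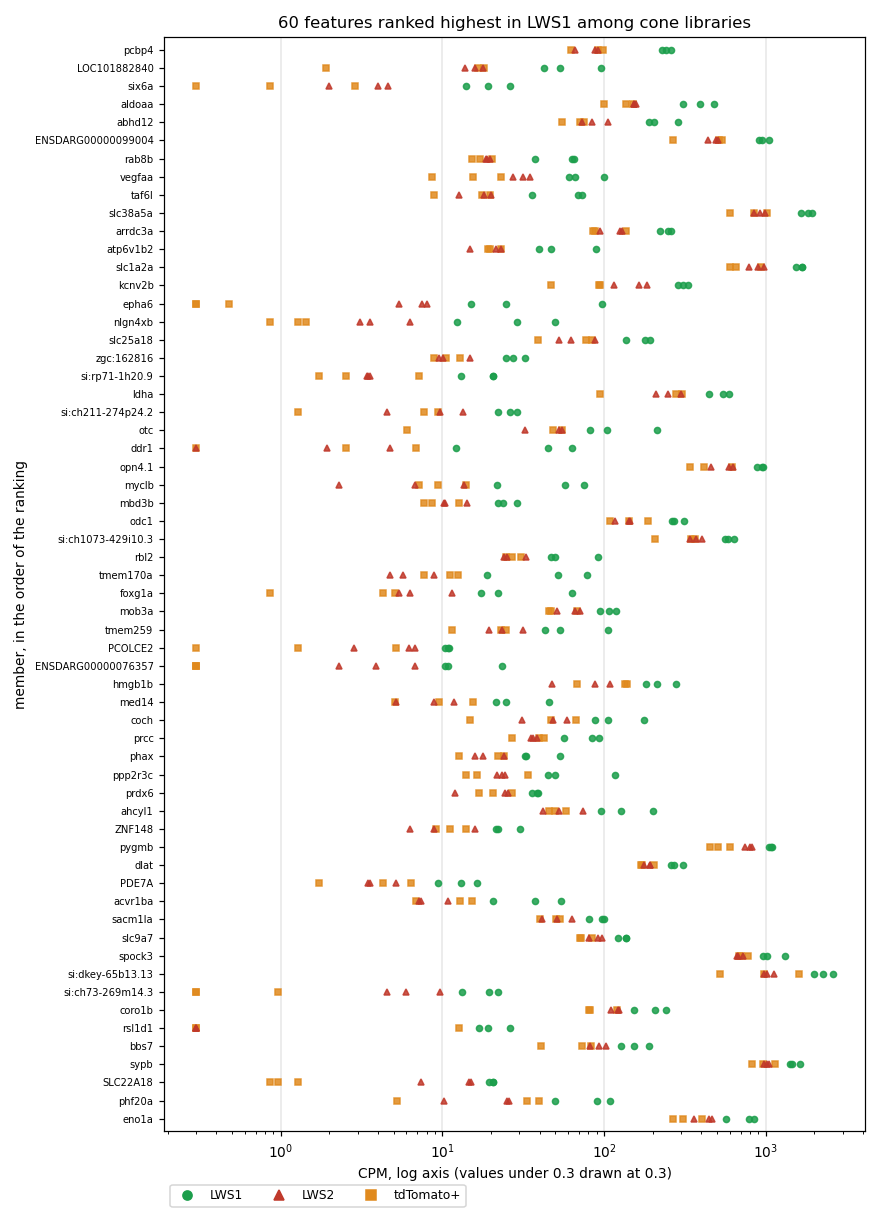
CPM (log axis) of the 60 members in the 9 cone libraries, in ranking order from top to bottom, with 1 point per library. All LWS1 points lie to the right of all LWS2 and tdTomato+ points, as the ranking requires, and the gap narrows from a log2 ratio of 1.17 at the top to 0.28 at the bottom.

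The first gene in the ranking was pcbp4, which encodes a poly(rC)-binding protein that acts on RNA. It was counted at 240.4, 258 and 228 CPM in the LWS1 libraries, against 66.3, 92.3 and 88.5 CPM in LWS2 and 62.3, 91.9 and 98.9 CPM in tdTomato+ libraries. Its tdTomato- values were 43.1, 100.5 and 101 CPM, so the 3 LWS1 libraries stood above the other 9. The fitted log2 fold change was 1.66 ± 0.22 (SE) for LWS1 against LWS2 and 1.48 ± 0.37 for LWS1 against tdTomato+. The level of abhd12, whose product is a serine hydrolase that degrades lysophosphatidylserine and whose loss in humans causes a syndrome with retinal degeneration, was 205, 287 and 191 CPM in LWS1, against 73.2, 107 and 84.3 in LWS2 and 70.9, 54.9 and 75.6 in tdTomato+.

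Transporters of amino acids and their relatives were among the most abundant members. slc38a5a, a member of the family that carries glutamine and other neutral amino acids, stood at 1652, 1932 and 1833 CPM in LWS1 libraries, against 849, 926 and 993 CPM in LWS2 and 603, 1025 and 844 CPM in tdTomato+. slc1a2a, a high-affinity glutamate transporter, stood at 1533, 1670.0 and 1672 CPM in LWS1, against 788, 978 and 896 CPM in LWS2 and 931, 600 and 652 CPM in tdTomato+. As in every member, by the ranking, the LWS1 libraries of both genes stood above the range of the other cones. The fitted log2 fold change of LWS1 against LWS2 was 1.08 ± 0.17 for slc38a5a and 0.99 ± 0.17 for slc1a2a (SE). slc25a18, a mitochondrial glutamate carrier, averaged 170 ± 29.9 CPM in LWS1, 67.5 ± 17.9 in LWS2 and 67.1 ± 24.3 in tdTomato+ (SD, n = 3 each). Another pair of the solute carrier family, slc9a7 (a sodium or potassium and proton exchanger of the Golgi) and SLC22A18 (of the organic cation transporter family), stood near the end of the list. Of 28 features on a list of solute carriers and ABC transporters tested in LWS1 against LWS2, 2 were called higher and none lower, and slc1a2a, the member on that list, was not among them. Over all 8432 features tested in this contrast, 0.605% were called higher and 1.2% lower, the shares to set beside this list and those below.

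Glycolysis, the cytosolic breakdown of glucose to pyruvate, was represented by aldoaa (aldolase), eno1a (enolase) and ldha (lactate dehydrogenase). aldoaa was counted at 308, 391.7 and 482 CPM in LWS1 libraries, against 153, 157 and 152 CPM in LWS2 and 151, 137 and 101 CPM in tdTomato+. ldha was counted at 448, 594 and 541 CPM in LWS1, against 249, 208 and 299 CPM in LWS2 and 303, 277 and 94.5 CPM in tdTomato+. The fitted log2 fold changes of LWS1 against LWS2 were 1.47 ± 0.24 for aldoaa, 1.18 ± 0.22 for ldha and 0.91 ± 0.23 for eno1a (SE), and those of LWS1 against tdTomato+ were 1.54 ± 0.39 for aldoaa, 1.14 ± 0.46 for ldha and 1.11 ± 0.37 for eno1a. These members did not stand for the whole pathway. Of 27 glycolysis features, 19 were tested in LWS1 against LWS2, where 2 were called higher and none lower. Both calls, aldoaa and ldha, are members chosen on this contrast, so nothing is read from them. The 16 that are not members held no call and had a median log2 fold change of 0.18. Related members outside the glycolysis list, singled out for their role after the members were known, were pygmb, a glycogen phosphorylase, at 1086, 1087 and 1049 CPM in LWS1 against 743, 823 and 804 in LWS2, and dlat, a subunit of pyruvate dehydrogenase, at 270.4, 261 and 308 CPM in LWS1 against 176, 194 and 193 in LWS2.

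**Figure D2:**
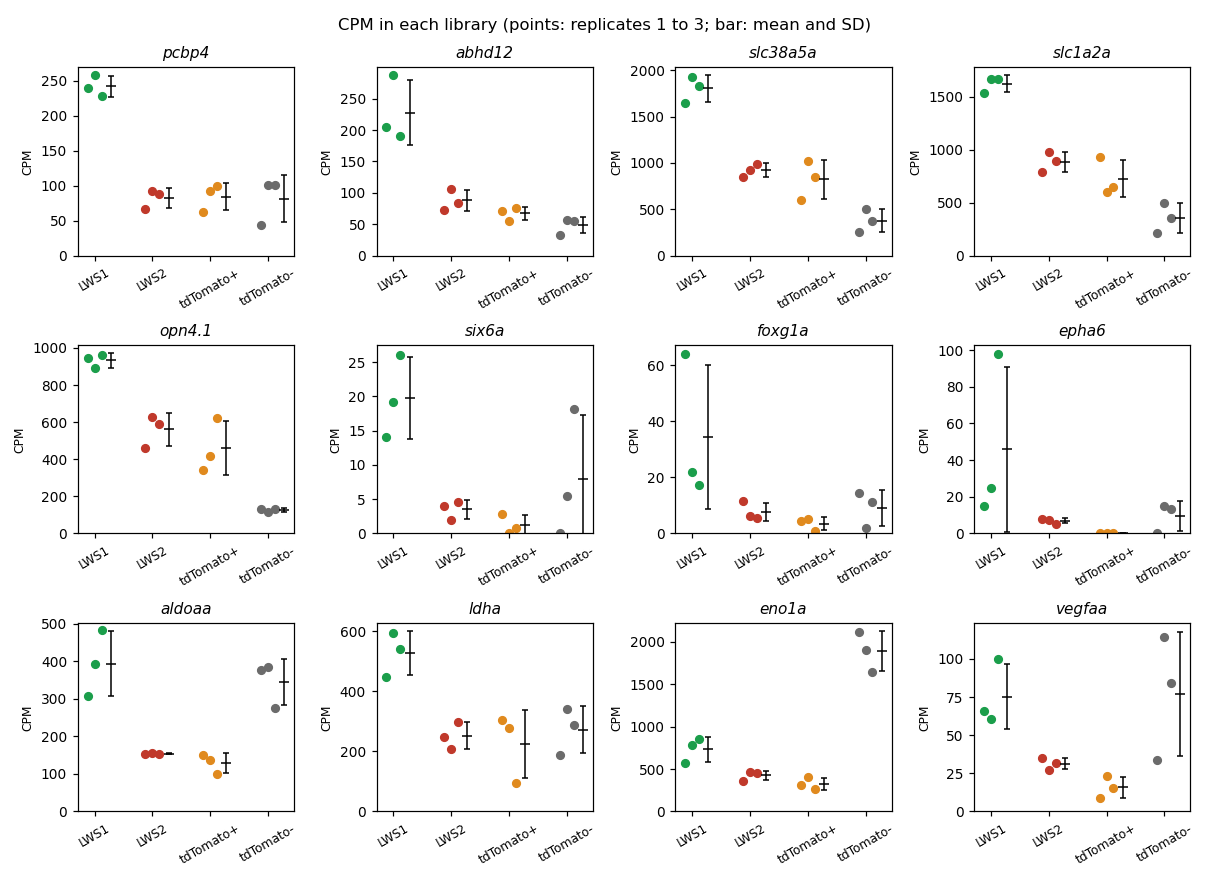
CPM of 12 members in each library, with LWS1, LWS2, tdTomato+ and tdTomato- from left to right, replicates 1 to 3 as points and the mean with its SD beside them. The LWS1 points lie above LWS2 and tdTomato+ in every panel, whereas the tdTomato- points lie highest for eno1a and reach the LWS1 range for aldoaa, vegfaa and six6a.

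Genes of light detection, excitability and the synapse were also among the members. opn4.1 encodes a melanopsin, an opsin of the non-visual kind, and was counted at 947, 889 and 962 CPM in LWS1, against 462, 629.6 and 590.0 CPM in LWS2 and 341, 415 and 621 CPM in tdTomato+ libraries. kcnv2b encodes a modifying subunit of voltage-gated potassium channels (loss of the human gene, KCNV2, causes a cone dystrophy) and was counted at 307, 287 and 332 CPM in LWS1, against 165, 116 and 184 CPM in LWS2 and 94.3, 47.2 and 92.8 CPM in tdTomato+. sypb, a synaptophysin of synaptic vesicles, averaged 1500.0 ± 118 CPM in LWS1, 1017 ± 34.6 in LWS2 and 979 ± 161 in tdTomato+ (SD, n = 3 each). Of 26 synaptic vesicle and ribbon features tested in LWS1 against LWS2, 1 was called higher and 1 lower, and sypb was neither.

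Transcription factors and chromatin proteins were mostly at low levels. six6a, a homeobox gene of the eye field, was counted at 14.1, 19.2 and 26.1 CPM in LWS1, against 4.003, 1.98 and 4.64 CPM in LWS2 and 2.87, 0 and 0.860 CPM in tdTomato+. In tdTomato- it was counted at 0, 5.43 and 18.2 CPM, which overlaps the LWS1 range. foxg1a, a forkhead gene that marks the nasal side of the developing retina, was counted at 63.9, 22.0 and 17.4 CPM in LWS1, against 11.4, 6.34 and 5.41 CPM in LWS2 and 4.31, 5.11 and 0.860 CPM in tdTomato+. LWS1 replicate 1 carried more foxg1a than the other LWS1 libraries together. Of 20 retinal patterning features tested in LWS1 against LWS2, 1 was called higher and 1 lower, and neither was a member. foxg1a and coch, which encodes a secreted extracellular protein and averaged 124 ± 47.0 CPM in LWS1, 46.1 ± 14.0 in LWS2 and 43.0 ± 26.4 in tdTomato+ (SD, n = 3 each), were the only 2 members found within 10 protein-coding genes of each other among the 51 members placed on the GRCz12tu gene list, at 5 genes apart. How often 51 genes taken at random would hold such a pair was not tested.

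hmgb1b, a high mobility group protein that bends DNA, was counted at 213, 183 and 278 CPM in LWS1, against 109, 47.9 and 87.8 CPM in LWS2 and 134, 139 and 67.9 CPM in tdTomato+. myclb, of the MYC family, was counted at 57.3, 75.6 and 21.7 CPM in LWS1, against 2.29, 6.74 and 13.5 CPM in LWS2 and 7.18, 14.0 and 9.46 CPM in tdTomato+. Both spread widely within a group, and the lowest myclb value among LWS1 libraries was 21.7 CPM beside a highest LWS2 value of 13.5 CPM. Other members of this kind were mbd3b (a methyl-CpG-binding domain protein of the NuRD complex) at 22.0 to 29.1 CPM in LWS1, med14 (Mediator) at 21.6 to 45.6 CPM, taf6l (a subunit of a histone acetyltransferase complex) at 35.7 to 72.8 CPM, phf20a (a plant homeodomain finger protein) at 49.5 to 109 CPM, ZNF148 (a zinc finger transcription factor) at 21.6 to 30.4 CPM and rbl2 (a relative of the retinoblastoma protein) at 47.0 to 91.2 CPM. Of 52 chromatin regulators, 14 high mobility group features, 16 MYC, cyclin and growth arrest features and 30 RNA-binding features tested in LWS1 against LWS2, 1 was called higher, the RNA-binding member pcbp4, and none lower. This contrast also chose pcbp4, so nothing is read from that call.

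Members that encode receptors, adhesion molecules or a secreted signal are given next, grouped by their known roles after the members were known. No member was on a list of cell adhesion and guidance genes. Of its 14 features tested in LWS1 against LWS2, none was called. An unadjusted p under 0.05 (edgeR) was reached by 2 of them and by 14.6% of all tested features. vegfaa, a growth factor for blood vessels, was counted at 65.7, 60.5 and 99.9 CPM in LWS1, against 34.9, 27.3 and 31.7 CPM in LWS2 and 8.62, 23.0 and 15.5 CPM in tdTomato+. epha6, a receptor for ephrins, which guide axons, was counted at 15.0, 24.7 and 97.7 CPM in LWS1, against 8.01, 7.53 and 5.41 CPM in LWS2 and 0.479, 0 and 0 CPM in tdTomato+. In epha6 the LWS1 libraries differed 6.504-fold among themselves, the widest spread of any member, and LWS1 replicate 3 alone carried most of the mean. nlgn4xb, a neuroligin of the postsynaptic membrane, was counted at 29.1, 12.4 and 49.9 CPM in LWS1, against 6.29, 3.57 and 3.09 CPM in LWS2 and 1.44, 1.28 and 0.860 CPM in tdTomato+. ddr1, a collagen receptor and like epha6 a receptor tyrosine kinase, was counted at 12.2, 45.4 and 63.0 CPM in LWS1, against 0, 4.75 and 1.93 CPM in LWS2 and 0, 2.55 and 6.88 CPM in tdTomato+. acvr1ba, an activin receptor of the serine/threonine kinase class, was counted at 37.6, 20.6 and 54.3 CPM in LWS1, against 7.43, 7.13 and 10.8 CPM in LWS2 and 12.9, 15.3 and 6.88 CPM in tdTomato+.

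Among the other members of the first 20, rab8b, a small GTPase of vesicle traffic to cilia, was counted at 37.6, 63.2 and 65.1 CPM in LWS1, against 18.9, 18.6 and 19.7 CPM in LWS2 and 15.3, 20.4 and 17.2 CPM in tdTomato+. arrdc3a, an arrestin-domain protein, was counted at 222, 260 and 247 CPM in LWS1, against 130, 94.7 and 125 CPM in LWS2 and 87.6, 137 and 85.1 CPM in tdTomato+. LWS1 values were 42.3 to 95.5 CPM for LOC101882840, 24.7 to 32.6 CPM for zgc:162816, 13.03 to 20.7 CPM for si:rp71-1h20.9 and 914 to 1053 CPM for the nameless ENSDARG00000099004. The highest LWS2 or tdTomato+ value was 18.1 CPM for LOC101882840, 14.9 CPM for zgc:162816, 7.18 CPM for si:rp71-1h20.9 and 535 CPM for ENSDARG00000099004.

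The end of the list was not marked by a gap. Of the last 3 members, SLC22A18 had a lowest LWS1 value of 19.5 CPM beside a highest other cone value of 15.1 CPM, phf20a had 49.5 CPM beside 39.5 CPM and eno1a had 568 CPM beside 466 CPM. Of the first 3 features outside the list, unc45b (a myosin chaperone) had a lowest LWS1 value of 9.39 CPM beside a highest other cone value of 6.88 CPM, gorasp1a (a Golgi stacking protein) had 103 CPM beside 84.2 CPM and CLPX (a mitochondrial protease subunit) had 93.5 CPM beside 76.6 CPM.

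The LWS1 libraries were not alike in these genes. The highest LWS1 value belonged to replicate 3, the shallowest of the 3, in 32 members (53.3%; 30.7% of all ranked features), to replicate 2 in 21 (33.6% of ranked features) and to replicate 1 in 7 (35.6%), and the lowest belonged to replicate 1 in 36. The highest and lowest LWS1 values were within 1.5-fold in 28 members, pygmb the closest at 1.04-fold, and more than 2-fold apart in 18. The list rested on all 3: with the ranking repeated without LWS1 replicate 1, 2 or 3, the new 60 held 21, 26 and 21 of the members, and 38 without tdTomato+ replicate 3. A ranking by group means held 21. Under the 16 other settings tried, 8 members were always kept, namely pcbp4, LOC101882840, six6a, aldoaa, abhd12, rab8b, taf6l and epha6.

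**Figure D3:**
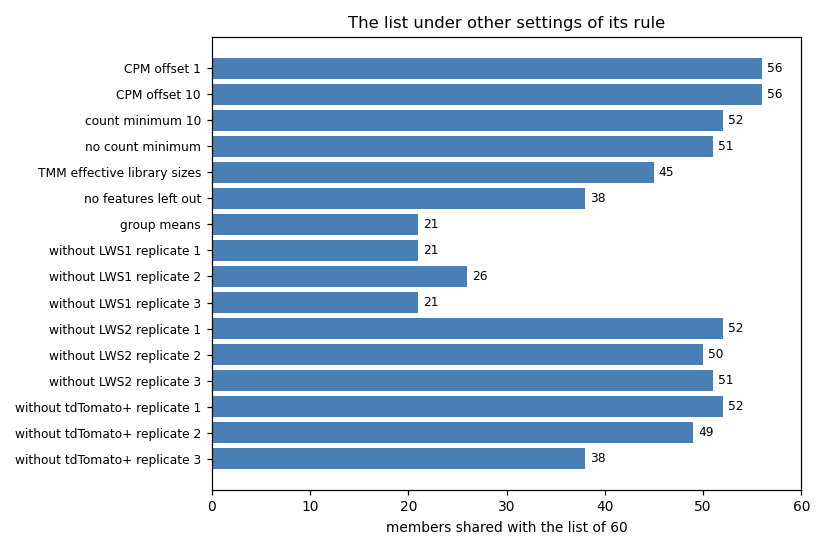
Number of the 60 members that remained among the top 60 when 1 setting of the ranking was changed or 1 library was left out. Bars for offsets, count minimums and single LWS2 libraries lie between 50 and 56, and those without an LWS1 library between 21 and 26.

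Some members share a name with another annotated feature, which could have split one gene's reads, and their standing changed when both features were added. The added counts were compared after the separate values had been seen. atp6v1b2, a subunit of the vacuolar proton pump, was counted at 47.0, 39.9 and 89.0 CPM in LWS1 against 14.9, 21.4 and 23.2 CPM in LWS2, but with ENSDARG00000013443, to which the reference table gives the human-style name ATP6V1B2, the sums were 468, 465 and 456 CPM in LWS1 against 470.1, 488 and 481 CPM in LWS2. That name does not tell apart the duplicated copies of zebrafish, so both features may be separate genes. The name PCOLCE2 comes from the same reference table, so its features may be separate genes as well. rsl1d1, a gene of ribosome biogenesis, was counted at 16.9, 19.2 and 26.1 CPM in LWS1 and at 0 in all LWS2 libraries, at least 15.3-fold higher in LWS1 against a floor of 3 counts per library, whereas the other rsl1d1 feature was at 0 in all LWS1 libraries and averaged 33.8 ± 5.55 CPM in LWS2 (SD, n = 3). Their sum averaged 20.7 ± 4.76 CPM in LWS1 and 33.8 ± 5.55 CPM in LWS2 (SD, n = 3 each). kcnv2b kept its order with its second feature, which was higher in LWS2: the sums were 360, 324 and 343 CPM in LWS1 against 249, 240 and 301 CPM in LWS2 and 118, 81.7 and 101 CPM in tdTomato+. The sums of prdx6 averaged 71.2 ± 12.5 CPM in LWS1, 42.2 ± 12.7 in LWS2 and 46.7 ± 22.0 in tdTomato+, and those of PCOLCE2 averaged 21.3 ± 5.09 CPM in LWS1, 18.4 ± 5.60 in LWS2 and 31.7 ± 31.0 in tdTomato+ (SD, n = 3 each). Only the kcnv2b sum still had all LWS1 libraries above the other cone libraries.

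**Figure D4:**
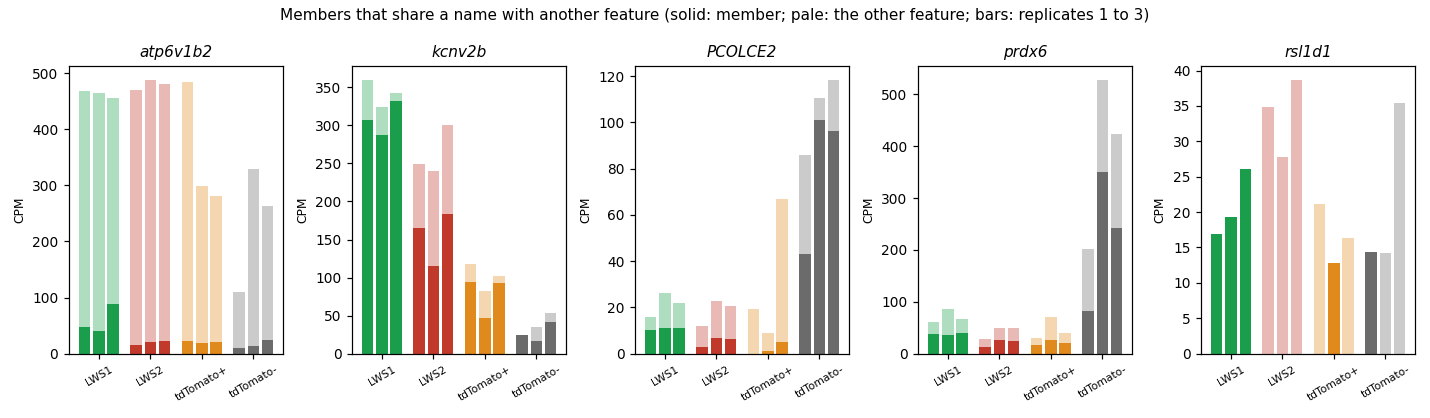
Stacked CPM in each library of the 5 members that share a name with another feature (solid: the member; pale: the other feature), with LWS1, LWS2, tdTomato+ and tdTomato- from left to right. The full bars of atp6v1b2 are level between LWS1 (456 to 468 CPM) and LWS2 (470.1 to 488 CPM), and the solid and pale parts of rsl1d1 change places between these groups.

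In the fits across all features, a feature was called at FDR under 0.05 and a fold change above 2 (edgeR quasi-likelihood test, Benjamini-Hochberg). In LWS1 against LWS2, 14 of the 60 members were called higher, where 0.605% of all 8432 tested features were, and none lower (1.2% of all features), and the members' median log2 fold change was 1.42 against 0.02 for all features. An unadjusted p under 0.05 was reached by 58 members and 14.6% of all features. In LWS1 against tdTomato+, 0 of 60 were called, where 0.0139% of 7214 were, with 44 at an unadjusted p under 0.05 (5.38% of all features), a members' median log2 fold change of 1.45 and 12 called by DESeq2. Both contrasts chose the members, so nothing is read from these counts. The medians were 1.42 and 1.45 also with rsl1d1 and ENSDARG00000076357, at 0 in all LWS2 and in all tdTomato+ libraries, set at their lower bounds. The count of 14 became 0 without LWS2 replicate 1 or without LWS2 replicate 3, 2 without LWS2 replicate 2 and 7 without LWS1 replicate 3.

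LWS2 and tdTomato+ both entered the ranking, through the highest of their 6 values, which shuts out features that are high in either group and so limits how far the members can differ between them. Their values are therefore a description as well, and nothing is read from the counts. In LWS2 against tdTomato+, none of the 52 members tested was called (edgeR; 0.708% of all tested features were called higher and 0.135% lower), 4 had an unadjusted p under 0.05, and DESeq2 called 1. The members' median log2 fold change was -0.04, and that of all features -0.06. The LWS2 libraries lay wholly above the tdTomato+ libraries in 10 of the 60 members (16.7%; 16.1% of all ranked features) and wholly below in none (3.61% of ranked features). SLC22A18 was counted at 7.43, 15.1 and 14.7 CPM in LWS2, against 0.958, 1.28 and 0.860 CPM in tdTomato+, a log2 fold change of 3.37 ± 0.74 (SE). For epha6, whose values stand above, the log2 fold change was 4.36 ± 1.05, for si:ch73-269m14.3 3.49 ± 1.03 and for kcnv2b 0.80 ± 0.35 (SE). These are the 4 members with an unadjusted p under 0.05 (edgeR), all of them higher in LWS2. Their means ran LWS1, LWS2 and tdTomato+ from high to low, an order set by how they were picked.

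tdTomato- cells took no part in the choice of members, but the LWS1 side was chosen for high values, which tilts this comparison upward. The shares of members called higher, or with all LWS1 libraries on top, are raised by that choice, and nothing is read from them. In LWS1 against tdTomato-, 17 of 59 tested members (28.8%) were called higher, where 2.39% of all tested features were, and 3 were called lower, where 4.70% were (edgeR). The median log2 fold change of the members was 1.47 and that of all features 0.05, and the 17 higher calls were 6 without LWS1 replicate 1, 11 without LWS1 replicate 2, 7 without LWS1 replicate 3, 8 without tdTomato- replicate 2 and 7 without tdTomato- replicate 3. The tdTomato- libraries lay wholly below the LWS1 libraries in 39 members (65.0%; 18.4% of ranked features), wholly above in 3 (8.04% of ranked features) and overlapped in 18. tdTomato- replicate 1 held 208946 counts after the left-out genes, where 3 counts are 14.4 CPM, and 18 members were at 0 in it.

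The calls that held best were opn4.1, kcnv2b, slc38a5a, slc1a2a, otc and ENSDARG00000099004, which stayed called in all 13 other fits run. The ranking took the lowest LWS1 value and so favoured high and even LWS1 values. The 13 fits draw on these same LWS1 libraries, so staying called in them is no separate support. The p-values and the lack of overlap below are tilted by that choice as well. opn4.1 was 947, 889 and 962 CPM in LWS1, against 134, 116 and 132 CPM in tdTomato-, with no overlap (log2 fold change 2.80 ± 0.35 SE, edgeR adjusted p = 0.0019). kcnv2b averaged 309 ± 22.6 CPM in LWS1 and 27.5 ± 12.6 CPM in tdTomato- (SD, n = 3 each; log2 fold change 3.45 ± 0.46 SE, edgeR adjusted p = 0.0021). In kcnv2b too the groups did not overlap. slc38a5a was 1652, 1932 and 1833 CPM in LWS1, against 254, 505 and 373 CPM in tdTomato- (log2 fold change 2.21 ± 0.34 SE, edgeR adjusted p = 0.0042). slc1a2a was 1533, 1670.0 and 1672 CPM in LWS1, against 215, 494 and 353 CPM in tdTomato- (log2 fold change 2.15 ± 0.35 SE, edgeR adjusted p = 0.0052). The lowest LWS1 value of either transporter was above 3 times the highest tdTomato- value. otc, the urea-cycle enzyme ornithine transcarbamylase, was 104, 213 and 82.5 CPM in LWS1, against 14.4, 8.83 and 8.09 CPM in tdTomato- (log2 fold change 3.75 ± 0.61 SE, edgeR adjusted p = 0.0052). ENSDARG00000099004 averaged 973 ± 71.5 CPM in LWS1 and 211 ± 48.1 CPM in tdTomato- (SD, n = 3 each; log2 fold change 2.14 ± 0.33 SE, edgeR adjusted p = 0.0041).

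The other 11 higher calls were each lost in 2 to 8 of the 13 fits. They were pcbp4, LOC101882840, abhd12, nlgn4xb, slc25a18, si:rp71-1h20.9, si:ch1073-429i10.3, tmem170a, pygmb, si:ch73-269m14.3 and bbs7, a component of the BBSome, which moves membrane proteins in cilia. nlgn4xb was counted at 29.1, 12.4 and 49.9 CPM in LWS1, against 0, 0 and 1.01 CPM in tdTomato-. si:rp71-1h20.9 was at 0 in all tdTomato- libraries and at 20.7, 20.6 and 13.03 CPM in LWS1, which is at least 2.795-fold higher in LWS1 against a floor of 3 counts per library.

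The 3 members called lower in LWS1 than in tdTomato- were prdx6, PCOLCE2 and eno1a. prdx6, a peroxiredoxin that reduces peroxides, was counted at 38.5, 35.7 and 39.1 CPM in LWS1, against 81.4, 350.5 and 243 CPM in tdTomato- (log2 fold change -2.60 ± 0.48 SE, edgeR adjusted p = 0.0082). PCOLCE2, which encodes an enhancer of procollagen processing, was counted at 10.3, 10.99 and 10.9 CPM in LWS1, against 43.1, 101 and 96.1 CPM in tdTomato- (log2 fold change -2.95 ± 0.56 SE, edgeR adjusted p = 0.0094). eno1a was counted at 568, 786 and 851 CPM in LWS1, against 2115, 1909 and 1644 CPM in tdTomato- (log2 fold change -1.46 ± 0.37 SE, edgeR adjusted p = 0.033). Müller glia markers summed to 1287 to 2678 CPM in LWS1 and 10270 to 20020 CPM in tdTomato- libraries, and their part in these 3 differences was not tested. All 3 calls were lost without LWS1 replicate 1 and without tdTomato- replicate 2 (0 lower calls in each), those of PCOLCE2 and eno1a also without tdTomato- replicate 3, and that of eno1a also without LWS1 replicate 2 or 3.

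aldoaa, vegfaa and hmgb1b were not called in LWS1 against tdTomato-, and in each of them the groups overlapped. aldoaa was 308, 391.7 and 482 CPM in LWS1, against 378, 384 and 275 CPM in tdTomato- (log2 fold change 0.10 ± 0.37 SE, edgeR adjusted p = 0.916). vegfaa was 65.7, 60.5 and 99.9 CPM in LWS1, against 33.5, 114 and 84.0 CPM in tdTomato- (log2 fold change -0.09 ± 0.49 SE, edgeR adjusted p = 0.946). hmgb1b was 213, 183 and 278 CPM in LWS1, against 57.4, 203 and 198 CPM in tdTomato- (log2 fold change 0.52 ± 0.43 SE, edgeR adjusted p = 0.5595).

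**Figure D5:**
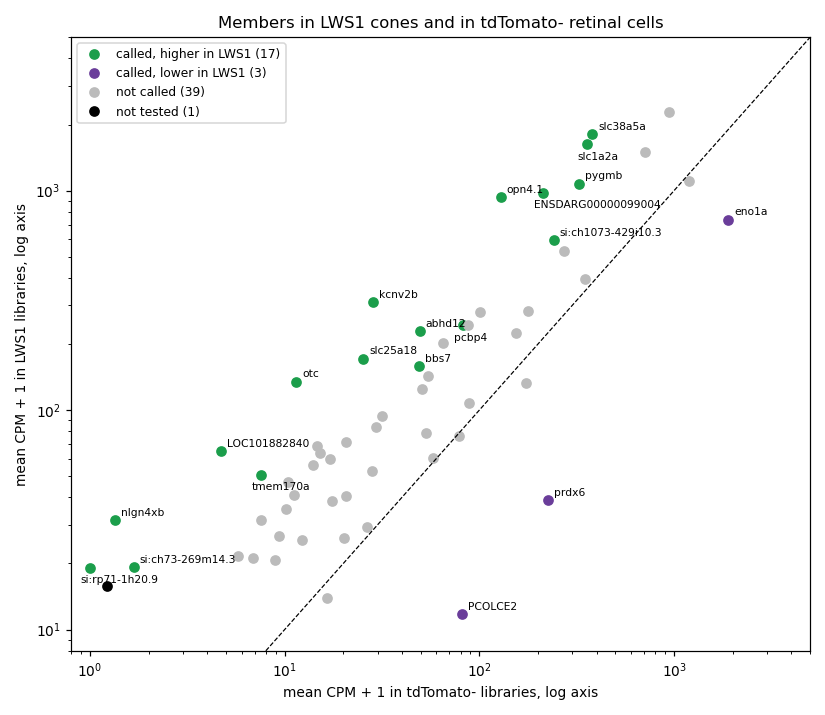
Mean CPM + 1 of each member in LWS1 (vertical, log axis) against tdTomato- (horizontal, log axis), with the dashed line at equal levels. The 17 members called higher in LWS1 lie above the line and prdx6, PCOLCE2 and eno1a below it.

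Within the thrb2:tdTomato line, tdTomato+ and tdTomato- cells were sorted from the same fish line, and here the tdTomato+ side was held low by the choice of members, which tilts the comparison downward. Of 47 members tested, none was called higher in tdTomato+ (0.146% of all tested features were) and 3 were called lower (6.38%; 1.99% of all tested features), again prdx6, PCOLCE2 and eno1a (edgeR). prdx6 was 16.8, 26.8 and 20.6 CPM in tdTomato+, against 81.4, 350.5 and 243 CPM in tdTomato- (log2 fold change -3.35 ± 0.55 SE, edgeR adjusted p = 0.021). PCOLCE2 was 0, 1.28 and 5.16 CPM in tdTomato+, against 43.1, 101 and 96.1 CPM in tdTomato- (log2 fold change -5.26 ± 0.96 SE, edgeR adjusted p = 0.024). With the other feature of that name added, the difference was smaller, at 31.7 ± 31.0 CPM in tdTomato+ and 105 ± 16.8 CPM in tdTomato- (mean and SD, n = 3 each). eno1a was 310, 405 and 268 CPM in tdTomato+, against 2115, 1909 and 1644 CPM in tdTomato- (log2 fold change -2.56 ± 0.46 SE, edgeR adjusted p = 0.024). Each of the 3 calls was lost without tdTomato+ replicate 2, tdTomato+ replicate 3, tdTomato- replicate 2 or tdTomato- replicate 3, and that of eno1a also without tdTomato+ replicate 1. The median log2 fold change of the members was 0.06 and that of all features 0.11.

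opn4.1, which was not called here, was 341, 415 and 621 CPM in tdTomato+, against 134, 116 and 132 CPM in tdTomato- (log2 fold change 1.83 ± 0.44 SE, edgeR adjusted p = 0.052). The tdTomato- libraries lay wholly below tdTomato+ in 10 members (9.96% of ranked features), which were opn4.1, slc38a5a, slc1a2a, kcnv2b, slc25a18, pygmb, dlat, rbl2, si:rp71-1h20.9 and ENSDARG00000099004. They lay wholly above in 7 (7.60% of ranked features), which were aldoaa, vegfaa, zgc:162816, PCOLCE2, prdx6, slc9a7 and eno1a.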

How the data were processed

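RNA from sorted adult zebrafish retinal cells was sequenced by the study as poly(A)-selected libraries. Per the submitters' processing notes, reads were trimmed with Trimmomatic 0.36, checked with FastQC 0.11.5 and quantified with Salmon 0.13.1 on GRCz11. The paper names STAR and another version of Salmon, and which output the counts come from is not given. The authors deposited a table of whole-number counts per Ensembl gene for 12 libraries, and tables of their own comparisons, used only to pair IDs with symbols. A further 12 per-sample columns in those tables were not used.

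CPM was computed from counts after the left-out genes. Each pair of groups was fitted in edgeR 4.0.16 (filterByExpr, TMM, quasi-likelihood test, no block, only the 2 groups compared) over all features kept, with Benjamini-Hochberg adjustment. The step was tried on simulated data with less spread between libraries than seen here, so its power in these data was not tested. Each SE of an edgeR log2 fold change was back-calculated, as its absolute value divided by the square root of the F statistic. Alternatives used DESeq2 1.42.0, limma 3.58.1, other normalization and filters, and single libraries left out. No library pair agreed within sampling noise. The members and gene lists were chosen with earlier results of these data known. Genes named were the first 20, those on a list, named by the study, called (up to 5 per comparison and direction, by p), at the list's edge, or sharing a family with another member; a few more were singled out after their values were seen. Names in capitals come from a reference name table. Strand use in counting is not given in the sources used here.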

Additional observations from a re-analysis of the deposited data

How the results depend on the processing

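Of the 60 members, 21 to 52 remained when 1 cone library was left out (21 to 26 for an LWS1 library, 50 to 52 for an LWS2 library, 38 to 52 for a tdTomato+ library), 21 with group means and 38 with no features left out, and 45 to 56 with other offsets, count minimums or TMM sizes. In LWS1 against LWS2, 14 members were called, 37 with DESeq2, 28 with no filter on low counts, 2 with all 4 groups in one fit and 0 to 19 with 1 library left out. In LWS1 against tdTomato+ the 0 calls became 12 with DESeq2, 5 with no filter and 1 with all 4 groups in one fit, and stayed 0 with any library left out. In LWS2 against tdTomato+ they became 1 with DESeq2 and 1 with no filter. In LWS1 against tdTomato- the 20 calls ran from 6 (without LWS1 replicate 1) to 25 with 1 library left out, and were 8 without tdTomato- replicate 2 or replicate 3, 9 without LWS1 replicate 3 and 13 without LWS1 replicate 2. In tdTomato+ against tdTomato- the 3 calls became 5 with DESeq2, limma-voom or no filter, 7 with all 4 groups in one fit and 0 to 5 with 1 library left out. The causes were not tested. With features of the same name summed, an alternative chosen after seeing the data, the log2 ratio of group means (offset 5) reversed to -0.052 for atp6v1b2 and -0.59 for rsl1d1 in LWS1 to LWS2, and to -0.48 for PCOLCE2 in LWS1 to tdTomato+. Of 777 refits of the 60 named log2 fold changes, none reversed, 649 stayed on their side of the call, 95 lost it and 33 gained it. In contrasts that chose the members, such as LWS1 against LWS2, the ranking favoured the sign, so the lack of reversals there is no test. Same-numbered libraries did not deviate together in every pair (correlations -0.13 to 0.22, and 0.174, 0.149 and 0.000 for LWS1 against LWS2). Replicate numbers are therefore not taken as pairs, but such correlations cannot show whether same-numbered LWS1 and LWS2 libraries came from the same fish. A replicate block gave 20 calls in LWS1 against LWS2, 0 against tdTomato+, 0 in LWS2 against tdTomato+, 14 in LWS1 against tdTomato- (the eno1a call was among those lost) and 3 in tdTomato+ against tdTomato-. Depth limits the members with fewer than 10 counts in an LWS1 library.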
